A study of Oryctolagus cuniculus with 6 samples.

Results

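Transcript events in which several neighbouring introns were retained or spliced together, or in which the exons beside a retained intron had different outer ends in the retained and the spliced form, were followed in rabbit skin with and without Prss53. They were chosen by the event type the authors assigned to each row. MIR events hold multiple introns, XIR events hold 1 intron with inexact flanks, and XMIR events hold multiple introns with inexact flanks. Each has a retained form (ON in the authors' tables), a single block running across the introns, and a spliced form (OFF), in which the exons are joined. In all, 5130 of the 76612 events in the tables, or 6.70%, had 1 of these types, and they lay at 1145 of 15280 assembled loci.

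The libraries came from skin of Oryctolagus cuniculus aged 30 days. The knockout group was labelled with the genotype Prss53-/- (n = 3) and the control group was labelled wild type (n = 3), and the treatment field reads Crispr/Cas9 for all 6 libraries, wild type included. Total RNA was taken with Trizol from flash-frozen skin and prepared for sequencing with a NEBNext Ultra RNA kit. The labels do not say whether each library is a rabbit of its own, so the p-values below measure spread among samples that may be technical repeats.

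Introns are normally removed from a transcript by the spliceosome, which recognises short signals at both intron ends. When an intron stays in, the transcript is often kept in the nucleus or carries an early stop codon and is degraded, and retention is a known means of lowering the output of a gene. Retention of several neighbouring introns together can also come from transcripts that were sampled before splicing was complete, or from an assembled block that begins or ends inside a gene. Prss53 encodes a trypsin-like serine protease known for its expression in the hair follicle.

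Each value was the authors' FPKM (fragments per transcript length, scaled to the library's mapped fragments) for an event in a library. No row stands at 0, so an event missing from a library was taken as listed at 0, which can mean that the transcript was absent or that it was not assembled. Depth is unknown, since the tables give no counts. None of the 1095 Ensembl IDs of these loci matched the supplied RefSeq table, so genes go unnamed, the level of Prss53 and of skin cell markers was not analysed here, and regions are given by the coordinates of the authors' files, whose build is not given in the sources used here. Knockout replicate 3 stood apart. Shares were compared over all 6857 tested elements, which hold retained shares of introns and included shares of exons. Those of knockout replicate 3 correlated at 0.876 and 0.885 with those of knockout replicates 1 and 2, which correlated with each other at 0.917. Wild-type pairs lay between 0.923 and 0.930 (Pearson r across elements, which are not independent replicates).

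The retained forms were listed far less evenly than the spliced forms. Of the 2374 retained events, 822, 738 and 815 were listed in knockout replicates 1, 2 and 3, and 753, 980 and 1137 in wild-type replicates 1, 2 and 3. Wild-type replicates 2 and 3 stood above the other 4 libraries, and wild-type replicate 1 fell among the knockout libraries. Of the 2756 spliced events, the knockout libraries listed 1344, 1335 and 1352 and the wild-type libraries 1278, 1337 and 1364. The groups overlapped in both forms. Only 201 retained events (8.47%) were listed in all 6 libraries, against 721 spliced events (26.2%), while 1191 retained events (50.2%) and 1228 spliced events (44.6%) were listed in a single library.

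The contrast between the forms was widest for MIR. Its retained forms were listed in 213 to 258 cases per knockout library and in 235, 350 and 410 cases in wild-type replicates 1, 2 and 3, whereas its spliced forms numbered 681 to 705 in every library. Of the MIR events, 462 of 1117 spliced forms (41.4%) and 53 of 756 retained forms (7.01%) were listed in all 6 libraries. The listed retained forms were also low, with a median of 1.46 to 1.68 FPKM per library against 3.57 to 3.95 FPKM for the listed spliced forms. Simple single-intron retention events (IR) followed the same order of libraries at the top, with 1513, 1383 and 1473 retained forms in the knockout libraries and 1284, 1727 and 1997 in the wild-type libraries.

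**Figure D1:**
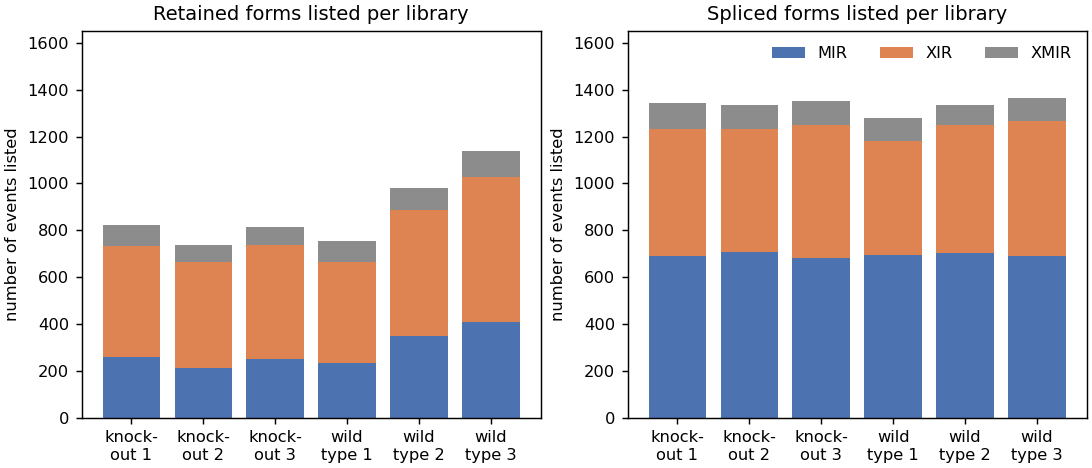
Number of retained (left) and spliced (right) MIR, XIR and XMIR events listed in each of the 6 libraries, stacked by kind. Retained forms range from 738 in knockout replicate 2 to 1137 in wild-type replicate 3, while spliced forms lie between 1278 and 1364.

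Most MIR events were small. Of the spliced MIR forms, 899 removed 2 introns, 173 removed 3 and 45 removed 4 or more, up to 7. XIR forms removed 1 intron by definition, and XMIR forms removed 2 introns in 215 cases. The retained block had a median length of 2288.5 bp for MIR, 1342 bp for XIR and 2202 bp for XMIR, against 1143.5 bp for simple retained introns.

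The outer ends of the blocks followed the event types. A retained MIR block began and ended where some spliced form of its locus did in 664 of 756 cases (87.8%), much like the 3113 of 3482 simple retained introns (89.4%). The same held for only 229 of 1373 XIR blocks (16.7%) and 31 of 245 XMIR blocks (12.7%), whose inexact flanks define them. Many of these blocks were not separate transcripts: 563 MIR blocks (74.5%), 863 XIR blocks (62.9%) and 125 XMIR blocks (51.0%) were also listed as the retained block of a simple event. A block spanning several introns can thus enter the tables under more than one type.

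Retained and spliced forms of a locus were paired into regions, by equal start and end for MIR and by overlap for XIR and XMIR. This gave 2348 regions, of which 1651 held both forms, 566 held only a retained form and 131 only a spliced form. Both forms together reached 1 FPKM in every library in 672 regions at 428 loci (429 MIR, 213 XIR and 30 XMIR), and these were tested, while 979 regions with both forms did not reach it. In the 672 tested regions the retained share is the FPKM of the retained form as a percentage of both forms. The introns of a tested region summed to a median of 1726 bp for MIR, 747 bp for XIR and 1253 bp for XMIR, and the median level of both forms together was 6.92 FPKM.

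Retention was mostly low or sporadic. The mean share over the 6 libraries was under 10% in 457 regions, between 10% and 50% in 146 and over 50% in 69. The retained form was listed in all 6 libraries in 75 regions and in a single library in 292. It was listed in 251, 223 and 232 of the 672 regions in the knockout libraries and in 218, 352 and 392 in the wild-type libraries, so wild-type replicate 1 was the lowest library and wild-type replicates 2 and 3 were the highest.

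The mean retained share over the tested regions was 14.7%, 12.6% and 13.0% in knockout replicates 1, 2 and 3 and 13.7%, 18.2% and 20.1% in wild-type replicates 1, 2 and 3. Wild-type replicate 1 lay between knockout replicates 1 and 3, so the groups overlapped. The knockout mean of 13.5% ± 1.08 (SD, n = 3) was 3.89 percentage points below the wild-type mean of 17.3% ± 3.27 (SD, n = 3), a difference within the reach of the replicate spread (exact two-sided permutation test over libraries, p = 0.2, adjusted over 5 measures 0.5). With 3 libraries against 3 the smallest p is 0.1. Wild-type replicates 2 and 3 were also the libraries with the most retained forms listed, and the part of listing in the difference was not tested. In whole skin, fewer cells of a type and less RNA per cell cannot be told apart.

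By kind, MIR regions had shares of 10.1%, 7.95% and 9.15% in the knockout and 8.93%, 14.2% and 16.7% in the wild-type libraries. Their difference of -4.25 percentage points had an exact permutation p of 0.3. XIR regions were retained more, at 23.7%, 21.8% and 20.5% against 23.7%, 26.3% and 27.1%, and their difference was -3.64 points (exact permutation p = 0.2). The 30 XMIR regions gave 16.7%, 14.1% and 15.5% against 11.9%, 16.6% and 19.2%, and their difference of -0.467 points changed sign when wild-type replicate 2 was left out (0.183 points) or wild-type replicate 3 (0.00112 points). Wild-type replicates 2 and 3 were the top libraries for MIR and XIR.

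The kinds were also set beside simple introns of the same library, as a description without a test. Simple introns had mean shares of 16.7%, 15.3% and 15.8% in the knockout and 14.7%, 18.4% and 20.6% in the wild-type libraries (2126 introns). MIR was below them in every library, by a mean of -5.75 ± 1.42 points (SD, n = 6). XIR was above them in every library, by 6.93 ± 1.43 points. XMIR was below in every library, by -1.26 ± 1.00 points, though by only -0.0154 points in knockout replicate 1. The place of MIR depended on the regions kept. With both forms listed in at least 3 libraries, its mean gap was -4.57 points in the knockout and 1.53 points in the wild type.

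The gap between the pooled MIR, XIR and XMIR regions and simple introns also differed between genotypes without overlap. It was -2.01, -2.65 and -2.79 points in the knockout libraries and -0.958, -0.281 and -0.489 points in the wild-type libraries. The knockout gap of -2.48 ± 0.414 was 1.91 points wider than the wild-type gap of -0.576 ± 0.347 (SD, n = 3 each), at the exact permutation p of 0.1 that is the smallest possible. For MIR alone the gap was -6.63, -7.33 and -6.69 points in the knockout and -5.77, -4.20 and -3.88 in the wild-type libraries, again without overlap and at p = 0.1 (exact permutation). The other kinds did not follow MIR. XMIR ran the other way without overlap, at -0.0154, -1.16 and -0.340 points against -2.76, -1.87 and -1.43, a difference of 1.51 points (exact permutation p = 0.1). XIR overlapped, at 7.002, 6.56 and 4.71 points against 8.98, 7.83 and 6.47 (exact permutation p = 0.3). A p of 0.1 does not pass 0.05.

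**Figure D2:**
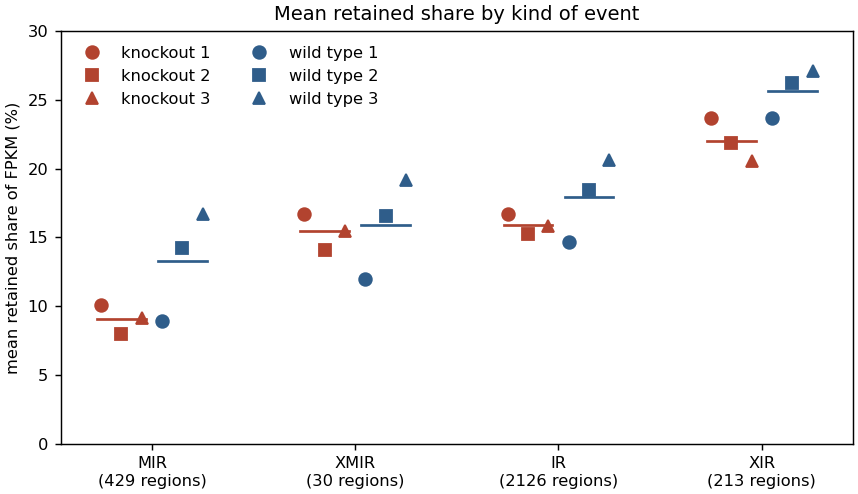
Mean retained share of FPKM (vertical axis, in percent) over the tested regions of each kind in each library, with IR for simple introns, and horizontal lines at the group means. MIR lies lowest and XIR highest in each library, and wild-type replicate 1 lies apart from wild-type replicates 2 and 3 in MIR, XMIR and IR.

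The retained share of MIR regions went down with the number of introns spanned. Over the 6 libraries it averaged 12.2% in 358 regions with 2 introns, 7.02% in 56 regions with 3 and 2.63% in 15 regions with 4 or more. Regions with 2 introns gave 11.03%, 9.24% and 9.94% in the knockout and 9.79%, 15.2% and 17.9% in the wild-type libraries. Regions with 3 introns gave 5.36%, 1.61% and 5.99% against 5.57%, 11.5% and 12.1%. All 6 libraries were thus lower with 3 introns than with 2, and the group with 4 or more introns was lower again in each, though it rests on few regions. These are descriptions, without a test.

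**Figure D3:**
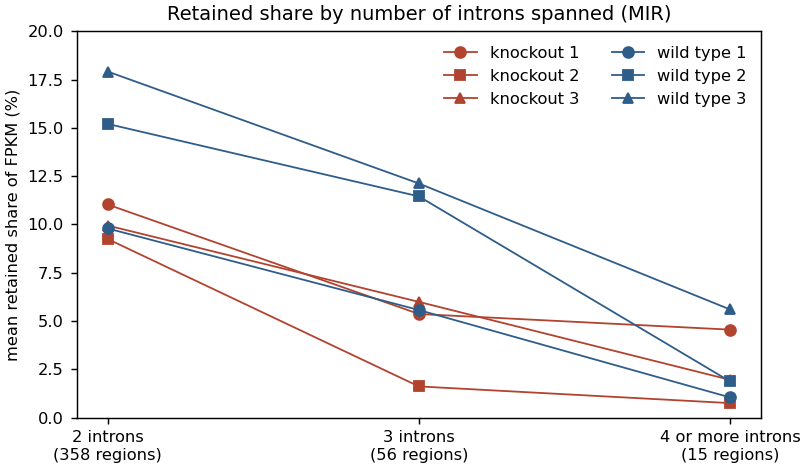
Mean retained share of FPKM (vertical axis, in percent) of MIR regions in each library, by the number of introns the region spans. Every line falls from 2 introns (12.2% over the libraries) through 3 introns (7.02%) to 4 or more (2.63%, 15 regions).

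Longer introns went with lower shares in XIR more than in MIR. In 3 equal groups of XIR regions by intron length, the shortest (37 to 359 bp) had a mean share of 33.2%, the middle group (362 to 1297 bp) 22.4% and the longest (1315 to 9548 bp) 16.0%. The same groups of MIR regions differed less, at 12.6%, 11.3% and 9.68% from the shortest to the longest. Across regions, Spearman's rho between intronic length and share was -0.21 for XIR and -0.05 for MIR, against -0.10 for simple introns, as a description over points that share libraries. Of the 429 MIR regions, 324 (75.5%) had a tested simple intron inside them. There the MIR share averaged 12.5% and the share of the inner introns 18.1%, and MIR lay below its inner introns in 238 regions and above them in 85. These 2 shares are not independent, since 74.5% of retained MIR blocks were also listed as the retained block of a simple event. An inner intron can thus count the same block, beside blocks that hold that intron alone.

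Region by region, 3 of the 672 passed the test of the share, all with a lower share in the knockout and none with a higher one (limma with empirical Bayes moderation, two-sided, Benjamini-Hochberg adjusted p under 0.05 over all 6857 elements). That is 0.446% of the regions, against 0.263% of all elements tested (0.16% lower and 0.102% higher). At an unadjusted p under 0.05 there were 41 lower and 11 higher regions, where 3.53% of all elements were lower and 2.45% higher. The mean share was lower in the knockout in 452 regions and higher in 220, with a median difference of -3.34 points, against -2.04 points for simple introns and -1.28 points over all elements.

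In 41 regions (6.10%) every knockout library lay below every wild-type library, and in 9 (1.34%) every knockout library lay above. Over all elements these shares were 4.59% and 3.47%, and for simple introns 5.22% and 2.54%. The lower set held 29 MIR, 11 XIR and 1 XMIR region, and the higher set held 3 MIR, 5 XIR and 1 XMIR. Both sets grew whichever library was left out, as fewer libraries then have to lie apart. The lower set came to 51 to 103 regions, most without wild-type replicate 1. The higher set came to 11 to 31, most without knockout replicate 2. The share over all elements was not counted for these fits.

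The region with the largest difference was a MIR region on the minus strand of an unplaced scaffold, at 2313204 to 2314188, in the gene ENSOCUG00000005133. Its 2 introns sum to 708 bp and enclose an exon of 275 bp, and the retained block runs from 2312530 to 2318882. The retained share was 23.9%, 0% and 0% in knockout replicates 1, 2 and 3 and 100% in each wild-type library. The retained form stood at 0.985 FPKM in knockout replicate 1, was not listed in knockout replicates 2 and 3, and stood at 3.25, 4.25 and 5.73 FPKM in the wild-type libraries. The spliced form showed the reverse, at 3.14, 1.58 and 1.84 FPKM in the knockout libraries and not listed in the wild-type libraries. In this region the retained form was the higher one in the wild type and the spliced form in the knockout. The share fell by 92.0 points (SE 9.85, limma adjusted p = 0.0296).

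The locus itself was listed in all 6 libraries. Its summed first exons stood at 14.4, 7.20 and 5.72 FPKM in the knockout and 12.7, 16.7 and 20.3 FPKM in the wild-type libraries, so these 2 forms made up only part of its output. Other events of the locus labelled as retained went the opposite way. A retained XIR form at 2314260 to 2314615 stood at 6.41, 5.03 and 3.41 FPKM in the knockout. Its block, 2314188 to 2318882, is also an outer exon of the spliced form of the region. It is thus not separate from that form. Another retained XIR form, at 2313036 to 2313391, stood at 3.27, 3.45 and 1.57 FPKM. Neither retained XIR form was listed in the wild-type libraries. The gaps of both retained XIR forms are 354 bp long, as is that of a spliced XIR form inside the region (2313833 to 2314188). Differently placed gaps of this locus thus have 1 length, and whether the locus is spliced there was not tested. With any single library left out, the region passed in 1 of 6 fits (limma adjusted p from 0.0108 to 0.0875).

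The other regions that passed are 2 overlapping descriptions of the same end of a gene on the plus strand of chromosome 2, ENSOCUG00000017915. The XIR region lies at 33451103 to 33453241, around an intron of 2137 bp. Its retained block begins at 33449663, upstream of the spliced flank at 33450964, and ends at 33453364. The retained share was 0% in all 3 knockout libraries and 68.2%, 79.3% and 79.5% in the wild-type libraries. The retained form was not listed in the knockout and stood at 2.49, 3.66 and 5.04 FPKM in the wild type. The spliced form was listed in every library, at 2.69, 3.09 and 2.74 FPKM against 1.16, 0.955 and 1.30 FPKM, and was higher in each knockout library. The share fell by 75.7 points (SE 9.28, limma adjusted p = 0.0326).

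The MIR region of the same gene, at 33449866 to 33453241, adds a neighbouring intron and an exon of 140 bp, so that 3234 bp of intron are spanned. Its share was 0% in the knockout libraries and 63.0%, 71.6% and 72.4% in the wild-type libraries, a fall of 69.0 points (SE 9.03, limma adjusted p = 0.0436). Its retained form had 3.66 and 5.04 FPKM in wild-type replicates 2 and 3, as in the XIR region, so the regions share transcripts and are not separate evidence. The first exons of the gene summed to 4.17, 4.25 and 2.74 FPKM in the knockout and 6.37, 6.48 and 7.89 FPKM in the wild type. With a library left out, both regions passed in 3 of 6 fits, and the adjusted p reached at most 0.0848 for XIR and 0.0875 for MIR.

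**Figure D4:**
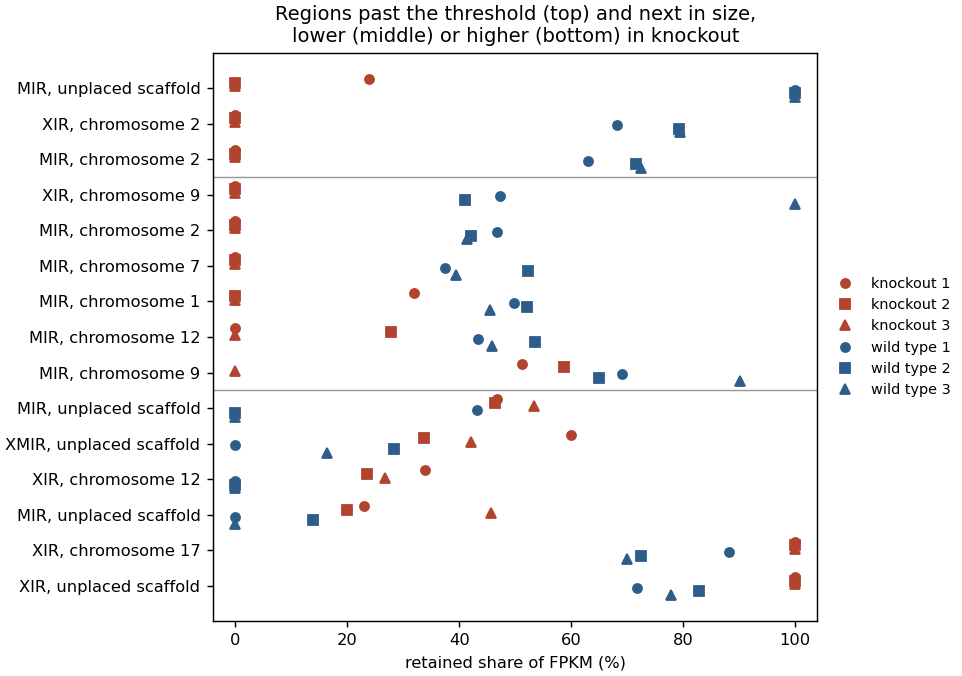
Retained share of FPKM (horizontal axis, in percent) in each library for the 3 regions past the threshold (top), the next 6 with groups that do not overlap and a lower share in the knockout (middle), and the 6 with a higher share (bottom). The chromosome 2 regions at the top hold all knockout libraries at 0% and all wild-type libraries at 63.0% or above.

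Below the threshold, the regions with the largest differences and no overlap between the groups were again mostly MIR. A MIR region on chromosome 2 (125267843 to 125270355, 2 introns of 2449 bp together) had a share of 0% in the knockout libraries and 46.7%, 42.2% and 41.4% in the wild-type libraries. Its retained form stood at 3.19, 3.91 and 3.42 FPKM in the wild type, while its spliced form was listed everywhere, at 4.78, 4.91 and 1.45 FPKM in the knockout and 3.64, 5.37 and 4.84 FPKM in the wild type. The difference of -43.4 points (SE 7.20) had a limma adjusted p of 0.107 and passed in 2 of 6 fits that left out a library. Presence of the retained form, more than the level of the spliced form, separated the genotypes here.

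A MIR region on chromosome 7 (150528388 to 150532643) had the same shape, with 0% in the knockout and 37.4%, 52.2% and 39.4% in the wild type (limma adjusted p = 0.138). An XIR region on chromosome 9 (88384347 to 88385547) had 0% against 47.3%, 41.0% and 100% (limma adjusted p = 0.325). In the other 3 of these regions at least 1 knockout library held the retained form. MIR on chromosome 1 (147224711 to 147229010) had 31.9%, 0% and 0% against 49.8%, 52.1% and 45.5%. MIR on chromosome 12 (87063713 to 87065653) had 0%, 27.8% and 0% against 43.3%, 53.6% and 45.8%. MIR on chromosome 9 (1665022 to 1666761) had 51.2%, 58.7% and 0% against 69.1%, 64.9% and 90.2%. The limma adjusted p of these 3 lay between 0.408 and 0.673, and in each of them at least 1 knockout library stood at 0%.

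In the other direction the differences of regions without overlap were smaller. An XIR region on chromosome 12 (97399623 to 97399999, an intron of 375 bp) had a share of 33.9%, 23.5% and 26.8% in the knockout and 0% in the wild-type libraries, with a spliced form between 2.74 and 5.05 FPKM in all 6 (limma adjusted p = 0.205). For 2 XIR regions the knockout held only the retained form. On chromosome 17 (64465212 to 64465393) the share was 100% in the knockout and 88.2%, 72.4% and 69.96% in the wild type (limma adjusted p = 0.305). On an unplaced scaffold (65564 to 65979) it was 100% against 71.8%, 82.8% and 77.9% (limma adjusted p = 0.192). There the spliced form was missing from the knockout libraries and stood at 2.80 to 3.93 FPKM in the wild type. A MIR and an XIR retained form of that locus (block 65979 to 69335) had the same levels in all 6 libraries. The same wild-type listing thus counts there as a spliced form and as a retained form, both missing from the knockout. The chromosome 17 retained form was itself lower in every knockout library, at 2.53, 3.24 and 1.30 FPKM against 8.38, 7.39 and 6.69 FPKM, and its spliced form stood at 1.12 to 2.87 FPKM in the wild type and was not listed in the knockout. The remaining 3 lay on unplaced scaffolds and all had a limma adjusted p of 0.673. Among them was a MIR region at 1693223 to 1694554, with 46.8%, 46.3% and 53.3% against 43.1%, 0% and 0%. The others were an XMIR region at 1781219 to 1787848 (59.9%, 33.8% and 42.2% against 0%, 28.3% and 16.4%) and a MIR region at 331675 to 333339 (22.9%, 19.99% and 45.6% against 0%, 13.9% and 0%).

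Among the most abundant regions with intermediate retention, a MIR region with 3 introns on an unplaced scaffold (1099853 to 1102758, 2621 bp of intron) had shares of 17.1%, 0% and 0% in the knockout and 35.6%, 41.0% and 42.0% in the wild type. Its retained form stood at 9.59 FPKM in knockout replicate 1, was not listed in knockout replicates 2 and 3, and stood at 37.3, 42.3 and 47.9 FPKM in the wild type. Its spliced form stood at 46.4, 48.6 and 48.9 FPKM against 67.5, 60.9 and 66.0 FPKM. Both forms were lower in every knockout library, the retained form by far more (share difference -33.8 points, SE 8.54, limma adjusted p = 0.305).

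A MIR region on chromosome 7 (141623708 to 141625163) was mostly retained, at 66.4%, 60.6% and 19.6% in the knockout and 78.4%, 87.1% and 85.2% in the wild type. Its retained form stood at 35.4, 19.4 and 0.615 FPKM against 80.8, 95.5 and 102 FPKM, and the first exons of its locus at 50.4, 18.2 and 5.95 FPKM against 87.8, 101 and 108 FPKM. The level of the whole locus was thus lower in the knockout libraries, with knockout replicate 1 nearest to the wild type, and the share did not pass (limma adjusted p = 0.673).

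The other 4 abundant regions had groups that overlapped or rested on single libraries. An XIR region on an unplaced scaffold (1783451 to 1787848) joins 102 events whose summed retained FPKM exceeds the first exons of the locus, so transcripts were counted more than once, and its share was 51.3% to 60.8% in the knockout and 50.7% to 63.8% in the wild type. A MIR region at 531367 to 536781 of an unplaced scaffold had 16.7%, 0% and 21.0% against 16.8%, 11.8% and 16.5%. An XIR region on chromosome 19 (4087847 to 4088251) had 78.6%, 0% and 0% against 33.5%, 15.6% and 37.2%. A MIR region at 28538 to 29196 of an unplaced scaffold had 100%, 100% and 0% against 0% in the wild type, where only its spliced form was listed, at 79.9, 76.6 and 40.7 FPKM.

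Taken event by event rather than as shares, 1433 events reached 1 FPKM in at least 3 libraries and 78 of them (5.44%, at 43 loci) passed the test of log2(FPKM + 1), 34 higher and 44 lower in the knockout (limma, adjusted over 37917 events of all types). Over all types 2.06% passed, 0.997% higher and 1.06% lower. Of the 78 events, 64 were listed in 1 genotype only, and an event that reaches the minimum only through the group where it is high had to differ, so the count and the levels of such events given below are a description, with no p. By form, 43 of 499 retained events and 35 of 934 spliced events passed. Of the 12 MIR retained forms that passed, all lower in the knockout, 11 were listed in 1 genotype only, as were 21 of the 25 XIR retained forms (15 higher and 10 lower), and the kinds were not compared by a test. With a library left out the counts were 0 to 7 higher and 0 to 34 lower. An event listed in 1 genotype only cannot reach the minimum in 3 libraries when that genotype is cut to 2.

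Of the 8 events with the largest differences towards the knockout, 5 belong to 1 region on the minus strand of chromosome 13, between 39475443 and 39475829, which holds 5 retained and 10 spliced XIR events in all. An XIR retained form there (39475673 to 39475713, a gap of 39 bp) stood at 58.9, 60.7 and 101 FPKM in the knockout and was not listed in the wild-type libraries. A spliced XIR form (39475517 to 39475635, a gap of 117 bp) stood at 52.4, 15.5 and 70.1 FPKM and was likewise not listed in the wild type. The other 3 of these 5 events were also listed in the knockout libraries alone, at 6.57 to 77.0 FPKM. Summed over all its events, the region was listed in wild-type replicate 3 too, at 4.70 FPKM in each form, and in neither form in wild-type replicates 1 and 2. The knockout sums were 77.5, 74.8 and 276 FPKM retained and 109, 53.8 and 317 FPKM spliced, so both forms were high together. The first exons of the locus summed to 267, 235 and 986 FPKM in the knockout and 77.8, 45.8 and 76.2 FPKM in the wild type. The share of the region was not tested, since it did not reach the minimum in every library.

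The other named events that were higher in the knockout lay on unplaced scaffolds. An XIR retained form at 210990 to 211050 (a gap of only 59 bp) stood at 18.7, 15.9 and 20.6 FPKM in the knockout and was not listed in the wild type. An XIR retained form at 1102553 to 1102758 stood at 25.3, 21.8 and 6.05 FPKM and was not listed in the wild type. It lies in the window of the abundant 3-intron MIR region described above, whose own retained form was lower in the knockout libraries, so the retained blocks of this locus did not move together. An XIR retained form at 1783451 to 1784199 stood at 9.36, 12.1 and 18.8 FPKM in the knockout. In the wild type it stood at 0, 0 and 1.41 FPKM. It met the minimum in 3 libraries only through the knockout, so these levels are a description, with no p. An XMIR retained form with the same block had the same levels.

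Among the events that were lower in the knockout, both forms appeared. A MIR retained form on chromosome 13 (95862065 to 95865862, block 95861956 to 95865995) was not listed in the knockout and stood at 13.9, 17.1 and 15.7 FPKM in the wild type. The first exons of its locus summed to 5.06, 2.55 and 4.40 FPKM in the knockout and 32.9, 19.8 and 17.5 FPKM in the wild type, so the locus was lower as a whole. A spliced XIR form elsewhere on chromosome 13 (74451907 to 74454200) was not listed in the knockout and stood at 17.4, 19.0 and 20.8 FPKM in the wild type. An unplaced block at 630616 to 631331, listed as MIR and as XMIR with no spliced partner, stood at 12.7, 11.6 and 16.6 FPKM in the wild-type libraries alone. Spliced XIR forms with the same listing lay on an unplaced scaffold (1099853 to 1102410; 14.0, 11.7 and 15.5 FPKM), on chromosome 2 (149098410 to 149099821; 10.4, 9.48 and 9.04 FPKM) and on chromosome 19 (4087847 to 4088076; 10.5, 8.63 and 8.96 FPKM). An XMIR retained form on chromosome 3 (30379297 to 30384422) stood at 3.87, 9.10 and 7.93 FPKM in the wild-type libraries alone.

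Only 9 of the events that passed were listed in all 6 libraries. They were picked out after their values were seen and do not rest on a missing row. A spliced XIR form on chromosome 7 (137924804 to 137925002) was under 1 FPKM in every wild-type library. So were the spliced MIR and XIR forms that passed at a chromosome 19 locus (11178397 to 11179891). These met the minimum through the knockout alone, so they are a description, with no p. Those named next reached 1 FPKM in all 6 libraries. The most abundant of the 9 was a spliced XIR form on chromosome 19 (42378525 to 42378615), at 453, 471 and 601 FPKM in the knockout and 211, 181 and 235 FPKM in the wild type. It rose by 1.28 on the log2(FPKM + 1) scale (SE 0.18, limma adjusted p = 0.0242). A retained XIR form on chromosome 13 (95873149 to 95873192, a gap of only 42 bp) was lower in the knockout. It fell from 32.9, 17.1 and 17.5 FPKM in the wild type to 5.06, 2.55 and 4.40 FPKM, by 2.20 on that scale (SE 0.33, limma adjusted p = 0.0283). It belongs to the chromosome 13 locus of the MIR form above, and its knockout levels equal the first-exon sums of that locus, so it is not a separate change. A spliced XIR form on chromosome 1 (148111992 to 148115153) fell from 8.88, 7.90 and 7.02 FPKM to 1.13, 1.34 and 1.11 FPKM, by 2.02 on that scale. The groups were well apart in each of these.

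**Figure D5:**
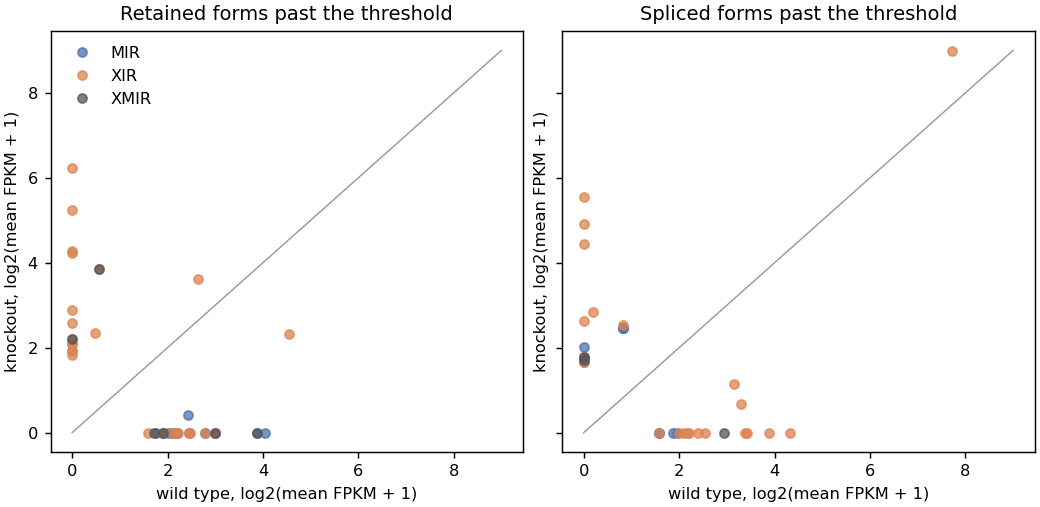
Mean level of each retained (left) and spliced (right) event that passed the event-level test, as log2(mean FPKM + 1) in the wild type (horizontal axis) and the knockout (vertical axis), with the line of equal levels. Most points lie on an axis, since 64 of the 78 events were listed in 1 genotype only.

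Listing by genotype was counted without a test. In all, 42 events (0.819%) were found in the 3 knockout libraries with no row in any wild-type library, and 79 (1.54%) the other way round, against 0.817% and 1.04% of the events of all types. MIR retained forms made 5 of the first and 23 of the second (0.661% and 3.04% of all MIR retained forms). XIR retained forms made 18 and 17 (1.31% and 1.24%), and XMIR retained forms 2 and 7 (0.816% and 2.86%). Simple retained introns gave 33 and 64 (0.948% and 1.84%). Both counts rose whichever library was left out, as fewer libraries then have to list or lack an event. The wild-type count came to 99 to 209, most without wild-type replicate 1. The knockout count came to 57 to 109, most without knockout replicate 1. Events with at least 5 FPKM in each listing library numbered 7 in either genotype.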

How the data were processed

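The authors deposited 1 table of transcript events per library, with a level in FPKM for each event. Per the submitters' processing notes, bcl2fastq (version 2.17.1.14) and cutadapt were used. Not given in the sources used here are the aligner, the assembler, the event caller and the build. Values were used as deposited, 1 per event and library, with missing rows as 0. FPKM is scaled by length and by mapped fragments, so a locus that takes much of a library lowers the rest.

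Simple and MIR forms were paired by equal locus, start and end, and XIR and XMIR forms by connected groups of overlapping events. Shares of regions with at least 1 FPKM of both forms in every library were fitted with limma 3.58.1 in R 4.3.3 (trended empirical Bayes moderation, genotype as the only term), together with all other retained introns and skipped exons, 6857 elements in all. Event levels were fitted as log2(FPKM + 1) where at least 3 libraries reached 1 FPKM, which understates changes of low events. Benjamini-Hochberg adjustment at 0.05 ran over each whole table. Both fits were first tested on data simulated with normal errors. The simulated shares were not bounded, unlike the real ones, many of which lie at 0%. Values with 1 number per library were compared with exact permutation tests.

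The regions named were those past the threshold in the share fit, the 6 in each direction with the largest share difference and no overlap between groups, the 6 most abundant with a mean share of 10% to 90%, the 8 events in each direction with the largest log2 change, and the 4 most abundant events listed in 1 genotype alone. The members and lists were chosen with earlier results of these data known. Gene lists and skin cell markers could not be applied, as IDs and symbols are not paired. No genome was used, and no sequence is printed. Alternatives covered the minimum level, the pairing, the pseudocount, the transformation, library weights, a replicate block and leaving out each library.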

Additional observations from a re-analysis of the deposited data

How the results depend on the processing

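The depth is unknown, so no counting error is given, and a form near the lower end of what was assembled can be missing for want of reads. Of the counts, the 3 regions with a lower share became 5 with an arcsine square root and 1 with the best single overlap. They became 7 (and 1 higher) with both forms listed in at least 3 libraries, and 1 (and 1 higher) with no minimum. With inexact groups of 1 retained and 1 spliced event (an alternative chosen after seeing the data) the count was 1. That fit left out the XIR region that passed, which holds 2 retained and 2 spliced events. At a minimum of 5 FPKM the count was 0. None of the 3 regions could enter that fit, as their lowest summed levels were 1.58, 2.69 and 2.71 FPKM. Leaving out 1 library gave 0 to 15 lower and 0 to 3 higher regions, with 15 lower without wild-type replicate 2, 11 without wild-type replicate 3, and 0 without knockout replicate 2 or wild-type replicate 1. The 34 higher and 44 lower events became 10 and 9 at 5 FPKM and 11 and 14 with no filter, and 0 to 7 and 0 to 34 with a library left out. The shared replicate numbers did not pair the libraries (same-number correlations of deviations from -0.006 to 0.088). With a replicate block 0 regions and 6 higher and 9 lower events passed. The regions without overlap became 15 lower and 3 higher at a minimum of 5 FPKM, and 51 to 103 and 11 to 31 with a library left out. The events listed in 1 genotype became 50 for the wild type at 1 FPKM and 7 in each genotype at 5 FPKM, and 57 to 109 for the knockout and 99 to 209 for the wild type with a library left out. The XMIR difference in mean share reversed to 0.756 points with both forms listed in at least 3 libraries, and ranged from -3.56 to 0.183 points with a library left out. The difference of the pooled regions kept its sign in every alternative, from -5.64 to -2.61 points with a library left out. So did the knockout minus wild-type difference of their gap to simple introns, from -2.27 to -1.70 points with a library left out. The gap itself did not keep its sign. With both forms listed in at least 3 libraries its mean was positive in both genotypes, and the knockout gap was then the narrower one. The mean wild-type gap was also positive with no minimum and without wild-type replicate 1. The causes of these changes were not tested.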

Other observations

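Some values lie outside the comparisons above. Regions on unplaced scaffolds (184 of the 672 tested) had a mean retained share of 17.5% in the knockout and 19.6% in the wild type. Their groups did not overlap in 9 lower (4.89%) and 6 higher (3.26%) regions, near the 4.59% and 3.47% of all elements. Regions on chromosomes (488) had 11.9% and 16.5%, with 32 lower (6.56%) and 3 higher (0.615%). The difference between these 2 sets of regions was not tested.

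The 5 events of the chromosome 13 region between 39475443 and 39475829 that were listed in the knockout alone have gaps of 39, 78 and 117 bp, and the longer ones are whole multiples of the shortest. Gaps under 70 bp were rare among these events, with 8 of 1445 distinct introns in MIR, 16 of 1030 in XIR and 0 of 290 in XMIR, against 43 of 3665 in simple events. Such short gaps would merit a look at the reads. Whether the locus is spliced there was not tested.

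A spliced form on chromosome 7 (137924804 to 137925002, XIR) stood at 8.47, 7.26 and 2.64 FPKM in the knockout. In the wild type it stood at 0.133, 0.141 and 0.135 FPKM. It met the minimum of 1 FPKM through the knockout libraries alone, so these levels are a description, with no p. A retained XIR form on chromosome 11 (64055064 to 64055089), a gap of 24 bp, stood at 11.4, 9.42 and 13.0 FPKM against 5.35, 5.29 and 5.11 FPKM. It rose by 0.96 on the log2(FPKM + 1) scale (SE 0.16, limma adjusted p = 0.0472). Both were listed in all 6 libraries and were picked out after their values were seen.

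Some events were listed in 1 library alone. The retained ones numbered 165, 131 and 221 in knockout replicates 1, 2 and 3 and 143, 227 and 304 in wild-type replicates 1, 2 and 3. The spliced ones numbered 232, 203 and 260 and then 148, 167 and 218. Knockout replicate 3 had the most such events of its group in both forms, and wild-type replicate 3 the most of its own.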
